A study of Mus musculus with 36 samples.

Results

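The transcription factor Pax5 was made with a lysine replaced by glutamine (K198Q), which mimics an acetylated lysine, and the binding of that form was compared with wild-type Pax5 by chromatin immunoprecipitation and sequencing (ChIP-seq). The comparison took in every peak of the 2 K198Q and the 2 wild-type peak lists, 30183 of the 56338 peaks in the 6 lists of the series. The other 2 lists came from another mutant form, K198R, in which arginine mimics a lysine without acetylation. Each list held the places where more DNA was recovered with an anti-Pax5 antibody than in the input chromatin of the same sample, with a fold enrichment over input, a −log10 q and a summit (the base of highest signal). Within a form, a peak was called replicated if it overlapped a peak of the other replicate by at least 1 bp, and overlapping peaks of the 2 lists were joined into 1 replicated region.

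All cells were Pax5-/- B cell progenitors of C57BL/6 mice that had been grown on OP9 stromal feeder cells with IL-7, SCF and FLT3-L, and Pax5 reached them through a retrovirus that also carried a human CD4 marker, on which infected cells were sorted. Wild-type Pax5, Pax5 K198Q and Pax5 K198R were each put in with the same kind of vector, and in the RNA experiment an empty vector (EV) gave Pax5-/- cells without Pax5. Binding was therefore measured for Pax5 made from a viral promoter in cells that lacked their own, and the level of Pax5 protein in the ChIP samples is not analysed here. The labels call the cells cultured pro-B cells of bone marrow, while the methods describe progenitors from fetal liver, so the tissue and age of origin are uncertain. Each form had 2 replicates, described in the methods as biological replicates made on different days.

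Pax5 is the factor that commits progenitors to the B cell lineage. It binds DNA through an N-terminal paired domain with a long and variable recognition sequence, switches on genes of the B cell receptor pathway such as Cd79a and Blnk, and holds down genes of other lineages such as Csf1r and Notch1. Acetylation of lysines can change how a transcription factor binds DNA or its partners, and a glutamine in place of the lysine keeps the neutral charge of the acetylated form.

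The windows below, 100 bases on either side of a summit, show what the antibody recovered at 4 regions, in GRCm38 (mm10). The first is the region with the highest mean K198Q fold enrichment, upstream of Lrrc32. Next is the strongest region near Vpreb1, bound by both forms. The window at the start of Clec2d is from the strongest wild-type region with no K198Q peak, and that at Adamts7 from the strongest K198Q region with no wild-type peak. Capitals mark the letters searched for as a Pax5 core, GCGTGAC or GCATGAC, on either strand.
Lrrc32, chr7:98488347-98488547, plus strand: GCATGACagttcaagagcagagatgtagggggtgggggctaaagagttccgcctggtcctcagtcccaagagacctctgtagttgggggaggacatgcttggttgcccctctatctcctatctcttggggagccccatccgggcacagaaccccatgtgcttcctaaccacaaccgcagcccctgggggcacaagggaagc
Igll1 promoter, near Vpreb1, chr16:16864025-16864225, plus strand: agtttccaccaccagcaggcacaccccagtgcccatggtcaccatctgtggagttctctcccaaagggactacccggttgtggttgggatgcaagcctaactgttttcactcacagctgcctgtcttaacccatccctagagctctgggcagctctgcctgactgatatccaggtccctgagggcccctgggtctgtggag
Clec2d, chr6:129180445-129180645, plus strand: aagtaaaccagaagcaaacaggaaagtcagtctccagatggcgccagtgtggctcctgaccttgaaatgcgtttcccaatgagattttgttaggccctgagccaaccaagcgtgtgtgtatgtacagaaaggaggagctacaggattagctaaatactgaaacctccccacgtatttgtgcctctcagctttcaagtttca
Adamts7, chr9:90162736-90162936, plus strand: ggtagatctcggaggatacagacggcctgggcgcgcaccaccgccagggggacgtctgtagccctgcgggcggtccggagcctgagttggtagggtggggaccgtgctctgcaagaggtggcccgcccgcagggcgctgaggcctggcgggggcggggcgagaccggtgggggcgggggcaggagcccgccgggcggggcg
Of these 4 windows only that of Lrrc32 held a core, at its left edge, 100 bases from the summit.

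K198Q gave far fewer peaks than wild-type Pax5. The 2 K198Q lists held 3750 and 3957 peaks and the 2 wild-type lists 10646 and 11830. The mean was 3854 ± 146 peaks for K198Q and 11238 ± 837 for wild type (SD, n = 2 lists), so K198Q reached 34.3% of the wild-type number, and the lists of the 2 forms did not overlap in size. With 2 lists against 2, the smallest p that a two-sided exact permutation test can give is 0.333, which was the value here and for the fold enrichment, length, promoter share, core share and GC content of the full lists. The K198R lists, with 12158 and 13997 peaks, were both longer than either wild-type list. The peak names inside the second K198R list carry the number 3 in place of 2, so its replicate number is uncertain and its form rests on its label.

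The gap widened towards the strongest peaks. At −log10 q of at least 20 there were 441 and 543 K198Q peaks and 1971 and 2097 wild-type peaks, or 24.2% of the wild-type number. At −log10 q of at least 50 there were 44 and 59 against 407 and 421, which is 12.4%. The same held for fold enrichment: 285 and 366 K198Q peaks reached 10-fold, against 1362 and 1464 for wild type, and 10 and 14 reached 20-fold, against 155 and 163. The highest single peak was 26.9-fold and 40.01-fold in the K198Q lists and 43.4-fold and 45.7-fold in the wild-type lists. The median peak of the full lists, which is tied to the calling threshold, hardly moved. It was 5.6-fold and 5.67-fold for K198Q and 5.69-fold and 5.68-fold for wild type. Peaks of K198Q were also narrower, with medians of 284 and 286 bp against 314 and 313 bp. The read extension stated in the methods is far shorter than the 200 bp of the shortest peak in every list, so the setting behind these lengths is uncertain.

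**Figure D1:**
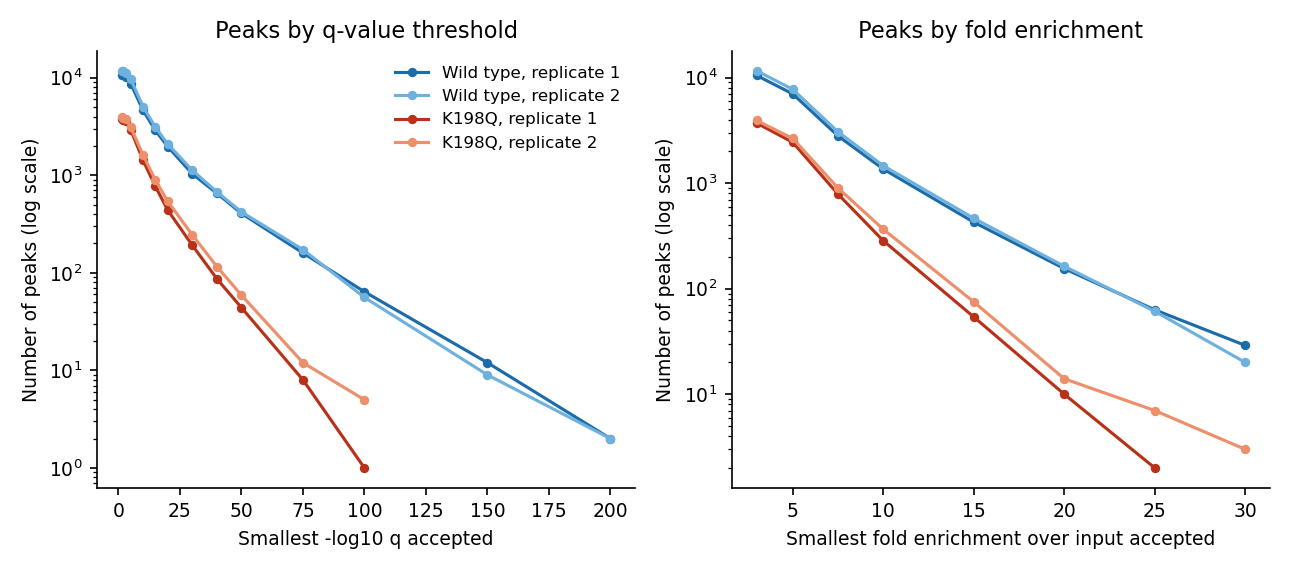
Number of peaks (log scale) in each of the 2 wild-type and 2 K198Q lists that reached a given −log10 q (left) or fold enrichment over input (right). Both K198Q curves lie below both wild-type curves and fall away faster, from 34.3% of the wild-type number at the authors' threshold to 12.4% at −log10 q of 50.

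Replicates overlapped somewhat less for K198Q than for wild type. The replicated share was 64.6% and 61.3% of the 2 K198Q lists and 74.3% and 66.8% of the 2 wild-type lists. Replicated peaks were the stronger ones, with a median of 6.16-fold against 5.0-fold in K198Q replicate 1 and 6.22-fold against 4.91-fold in wild-type replicate 1. Joining the replicated peaks gave 2409 K198Q regions and 7790 wild-type regions.

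Nearly all K198Q regions were also bound by wild-type Pax5. Of the 2409 K198Q regions, 2342 (97.2%, 95% Wilson interval 96.5 to 97.8%) overlapped a replicated wild-type region, 54 overlapped only wild-type peaks that were not replicated, and 13 (0.540%) overlapped no wild-type peak. Even the K198Q peaks that failed to replicate lay at wild-type peaks, 91.1% of those of replicate 1 and 91.8% of those of replicate 2. Each K198Q list overlapped each wild-type list more often (91.7 to 93.3% of its peaks) than it overlapped the other K198Q list. Wild-type lists are longer and so easier to overlap, and a comparison at equal length is given below. Intervals on these shares cover counting error only.

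Seen from the wild-type side, the regions fell into 3 classes. A replicated K198Q region was found at 2329 of the 7790 wild-type regions (29.9%, interval 28.9 to 30.9%), which are called kept. A further 2026 (26.0%) met a K198Q peak that was not part of a replicated region, and 3435 (44.1%) met no K198Q peak in either list and are called lost. A lost region is one where no peak passed the threshold, not one shown to be free of K198Q.

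The strength of a region in wild-type cells went with its class. The median wild-type fold enrichment was 9.87-fold in kept regions, 6.49-fold in those with an unreplicated K198Q peak and 5.45-fold in lost regions. Wild-type regions were ordered by mean fold enrichment into 10 sets of 779. In the lowest set (median 4.07-fold) 32 were kept (4.11%). In set 5 (6.15-fold) the share was 13.1%, in set 8 (8.62-fold) 47.1% and in the highest (15.1-fold) 95.5%, or 744 regions, and 4 of that set were lost. Each list showed this on its own. With the peaks of a single wild-type list in 10 sets, the top set overlapped a single K198Q list in 88.9 to 92.1% of cases and the bottom set in 8.96 to 14.5%, over the 4 pairs of lists.

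K198R gave a flatter course. A replicated K198R region was found at 61.9% of the weakest set and 99.5% of the strongest, and at 6158 of all 7790 wild-type regions (79.1%). Of the 3435 regions lost with K198Q, 2069 (60.2%) were replicated regions with K198R and 2981 (86.8%) had a K198R peak in at least 1 list.

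**Figure D2:**
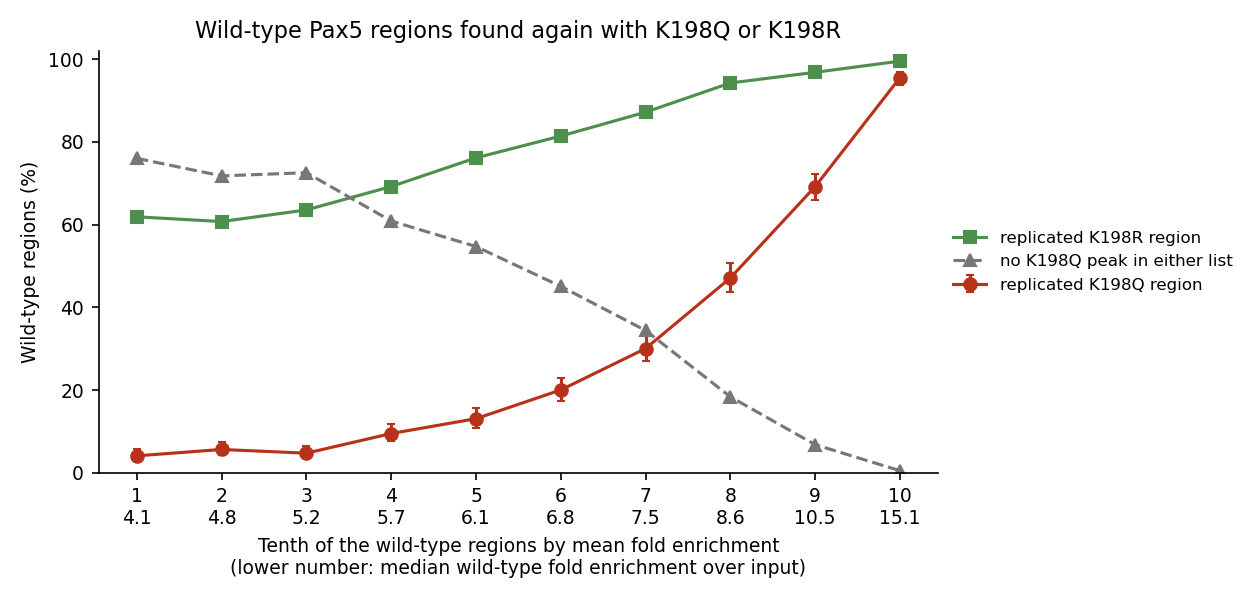
Share of the wild-type Pax5 regions (percent, vertical) with a replicated K198Q region (bars: 95% Wilson interval), with a replicated K198R region, or with no K198Q peak, in 10 sets of 779 regions ordered by wild-type fold enrichment over input (horizontal). The K198Q share climbs from 4.11% to 95.5%, while the K198R share runs from 61.9% to 99.5%.

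Lists cut to the same length gave a different picture of overlap. When only the 3750 peaks with the highest −log10 q of each list were used, 64.7 to 66.5% of a wild-type list's peaks overlapped a K198Q list, compared with 72.2% for wild-type replicate 1 against replicate 2 and 62.7% for K198Q replicate 1 against replicate 2. The best 3750 peaks of the 2 forms thus overlapped about as often as those of the K198Q replicates did. At this length 67.1% of wild-type regions were kept in place of 29.9%, and 78.1% of K198Q regions were shared in place of 97.2%. Reaching 3750 peaks took a −log10 q of 12.2 and 12.9 in the wild-type lists and of 1.35 and 3.18 in the K198Q lists. In these cut lists the mean of the median fold enrichments was 5.71-fold for K198Q and 8.98-fold for wild type. For peak length it was 286.5 bp and 418 bp. The cut removed the weaker wild-type peaks, so the size of these gaps depends on it.

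At regions bound by both forms the K198Q signal was lower. Over the 2329 kept regions the median fold enrichment was 6.28-fold and 6.46-fold in the K198Q lists and 9.69-fold and 10.0-fold in the wild-type lists. The mean of the medians was 6.37 ± 0.124 for K198Q and 9.85 ± 0.239 for wild type (SD, n = 2), a ratio of 0.646. Region by region, the median log2 ratio of K198Q to wild type was −0.60, which is 0.658-fold, and lay between −0.55 and −0.67 for the 4 pairs of lists. Between replicates it was 0.05 for wild type and 0.05 for K198Q. Both K198Q values were below both wild-type values at 1403 regions (60.2%) and above both at 49 (2.10%).

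The ratio could be followed over site strength only within this filtered set. Only regions past the threshold in both K198Q lists were counted, so low ratios at weak regions could not be seen and a fall of the ratio with strength follows in part from the filter. Regions were ordered by wild-type replicate 1 and the ratio was taken to replicate 2, so that the ordering value was not part of the ratio. In 4 sets of equal size the median ratio was 0.711 for the weakest, 0.640 and 0.614 for the next and 0.582 for the strongest. Ordering by replicate 2 gave 0.755 and 0.592 at the ends. The order of the regions was kept only loosely. Spearman's rho over the 2329 regions was 0.58 between the wild-type replicates, 0.40 between the K198Q replicates and 0.46 to 0.50 between forms, values that share the threshold and are given as a description.

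Summits of the 2 forms lay close together. The K198Q and wild-type summits were a median of 26.0 bp apart, against 24.0 bp between the wild-type replicates in the same regions, and 92.8% were within 100 bp.

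**Figure D3:**
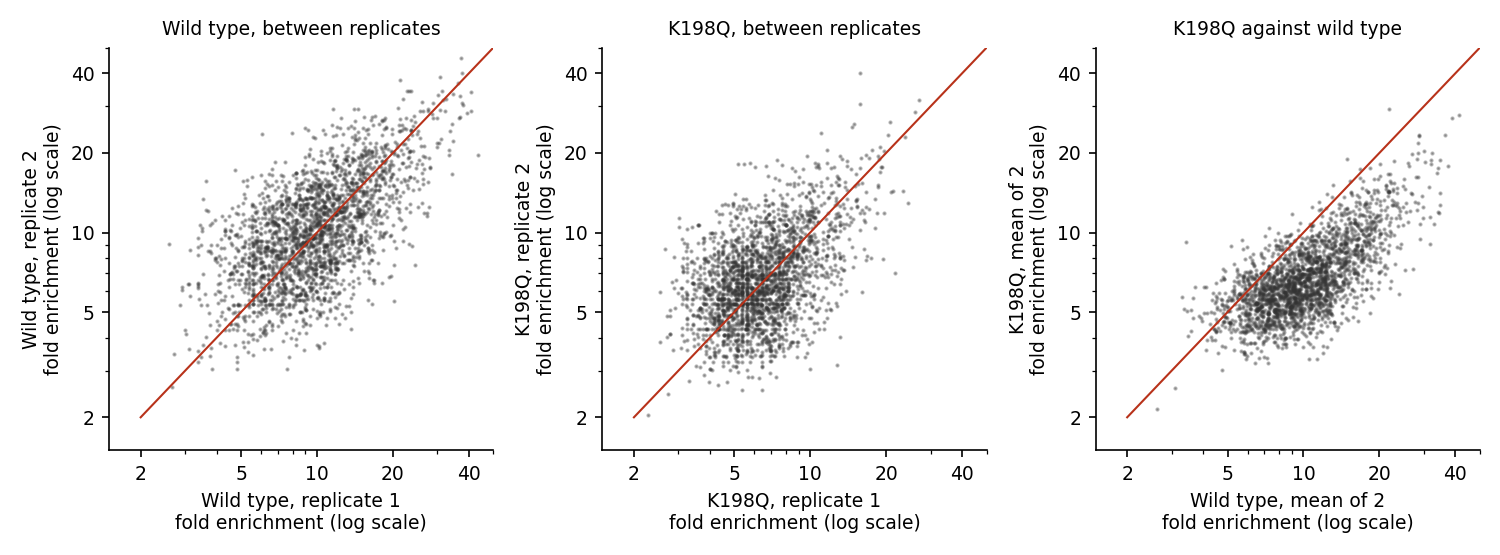
Fold enrichment over input (log scales) at the 2329 regions replicated in both forms, 1 point per region, between the wild-type replicates (left), between the K198Q replicates (middle) and for the K198Q mean against the wild-type mean (right). The line marks equal values; points of the first 2 panels lie about it, and in the right panel most lie below it, with a median ratio of 0.658.

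By position in the genome, K198Q peaks differed little from wild-type peaks. Summits within 1 kb of the start of a protein-coding gene made up 50.9% and 48.6% of the K198Q lists and 44.6% and 47.0% of the wild-type lists, a difference of 3.97 percentage points between the means. Introns held 24.0% and 25.0% of K198Q peaks and 26.7% and 25.8% of wild-type peaks, and intergenic stretches 22.2% and 23.4% against 25.6% and 24.1%. Kept regions were promoters in 49.5% of cases, regions with an unreplicated K198Q peak in 50.5% and lost regions in 44.6%. At similar wild-type strength promoters were kept a little more often in each of 4 sets of equal size, from 5.94% against 3.54% of other regions in the weakest to 80.8% against 73.6% in the strongest.

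The paired domain reads a long sequence, and the 7-letter core is a strict stand-in for it. A core lay within 100 bases of the summit in 12.1% and 12.3% of K198Q peaks and in 10.2% and 9.52% of wild-type peaks, a difference of 2.36 percentage points between the means. Genome windows of the same length held one in 1.77% and windows at protein-coding gene starts in 2.73%. The difference turned around in lists of equal length, where the means were 12.3% for K198Q and 13.2% for wild type. By class, 13.8% of kept, 10.9% of unreplicated and 8.77% of lost wild-type regions held a core. At like strength the core went with no steady difference in the share kept. In the strongest of the 4 sets 76.4% of regions with a core and 76.9% of those without were kept, and in the next 25.3% and 28.3%, while in the 2 weaker sets the shares were 13.8% and 9.58%, and 5.88% and 4.75%.

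The G and A forms of the core were also counted apart, without matching for strength, in which kept and lost regions differ. The G form, GCGTGAC, was in 8.98% of kept and 4.46% of lost regions, and the A form, GCATGAC, in 5.03% and 4.40%. Cores crowded around the summit in both forms of Pax5. In the 50 bp on either side of it, 5.50% and 5.37% of kept wild-type regions had a core, 5.0% and 5.56% of shared K198Q regions, and 3.29% and 2.91% of lost regions. In the outermost bins, 450 to 500 bp away, the shares were 0.342% to 0.684% in these 3 sets.

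**Figure D4:**
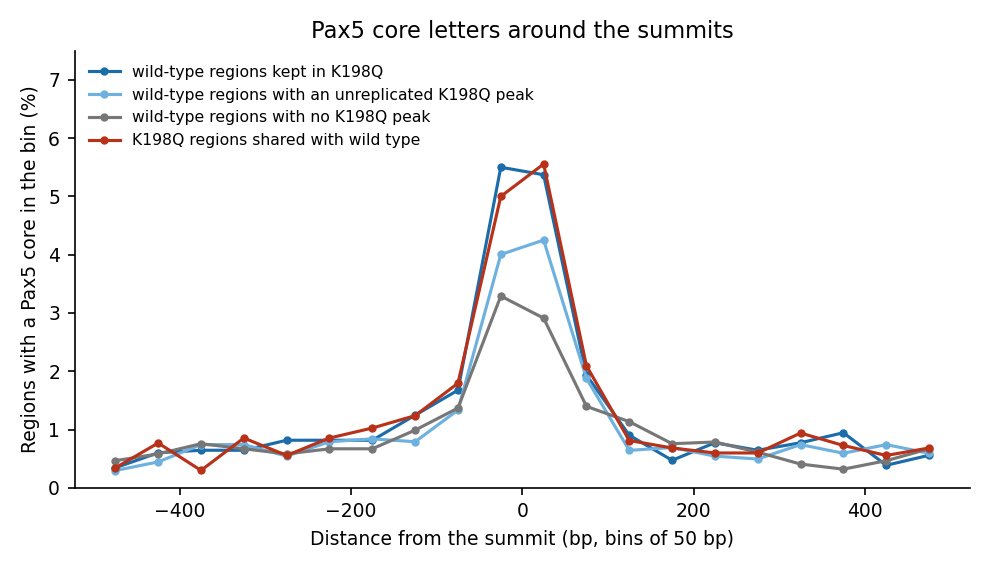
Share of regions (percent, vertical) with the Pax5 core letters in each 50-bp bin of distance from the summit (horizontal), for 3 classes of wild-type regions and for shared K198Q regions. All 4 curves peak within 50 bp of the summit, at 5.50% in kept regions and 3.29% in lost regions.

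A further 6 windows of 50 bases on either side of the summit show such cores, 3 from the strongest kept and 3 from the strongest lost wild-type regions that had one, chosen after the values were seen.
Pabpc1 promoter, kept, chr15:36609212-36609312, plus strand: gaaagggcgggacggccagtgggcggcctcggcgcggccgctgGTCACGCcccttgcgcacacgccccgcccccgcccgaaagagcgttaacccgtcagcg
intron, nearest start Sdhb, kept, chr4:140944588-140944688, plus strand: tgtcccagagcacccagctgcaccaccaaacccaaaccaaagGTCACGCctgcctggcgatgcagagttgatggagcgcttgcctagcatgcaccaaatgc
Dusp3 promoter, kept, chr11:101984833-101984933, plus strand: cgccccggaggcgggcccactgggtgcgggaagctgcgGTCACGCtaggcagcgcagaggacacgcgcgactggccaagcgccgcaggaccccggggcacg
Coro2b, intron, lost, chr9:62516032-62516132, plus strand: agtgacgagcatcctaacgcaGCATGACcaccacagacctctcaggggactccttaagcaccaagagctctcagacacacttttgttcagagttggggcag
nearest start Plac1, lost, chrX:53059437-53059537, plus strand: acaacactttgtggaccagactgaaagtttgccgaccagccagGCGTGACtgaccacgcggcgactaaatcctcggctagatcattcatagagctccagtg
nearest start Zfp36l1, lost, chr12:79840602-79840702, plus strand: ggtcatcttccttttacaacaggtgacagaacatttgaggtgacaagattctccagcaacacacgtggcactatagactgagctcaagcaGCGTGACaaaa
All 3 kept windows carried the G form on the minus strand, 7 to 12 bases left of the summit. Of the lost windows, that of Coro2b carried the A form and the others the G form, all on the plus strand, the last 40 bases to the right.

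Other sequence features differed less between the classes. The EBF1 site TCCCNNGGG was in 10.9% of kept and 10.9% of lost regions, against 1.85% of genome windows, and the RUNX site TGTGGTT in 8.08% and 7.78%, against 4.73%. The E-box CAGCTG was in 19.6% and 18.2%. The ETS letters GAGGAAGT were in 3.61% and 4.02%, and CCGGAAGT in 2.88% and 3.47%. The median GC content of the summit windows was 60.2% in kept and 57.7% in lost regions, and 41.8% in the genome. In the lists it was 60.2% and 60.2% for K198Q and 57.7% and 58.7% for wild type. All motifs were searched on both strands, and a match is a description of the letters only.

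The strongest shared K198Q regions were also among the strongest of wild type. The region at −1250 bp from the start of Lrrc32, which encodes a carrier of latent TGF-beta, had 26.9-fold and 31.7-fold with K198Q and 18.7-fold and 24.8-fold with wild type. It was the only one of the 5 where both K198Q values exceeded both wild-type values. An intron of Pakap followed with 15.8-fold and 40.01-fold against 37.1-fold and 45.7-fold. The start of Pabpc1, the poly(A)-binding protein, had 25.9-fold and 28.5-fold against 37.5-fold and 40.2-fold. An intron of Itpr2, a calcium channel of the endoplasmic reticulum, had 20.8-fold and 26.1-fold against 36.2-fold and 36.9-fold. A site whose nearest start is that of Smu1, a splicing factor, at −16536 bp, had 23.8-fold and 23.0-fold against 23.2-fold and 34.4-fold.

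Among the lost regions 4 of the strongest 5 were promoters. The start of Clec2d, a C-type lectin (chr6:129180377-129180756), had 12.8-fold and 14.4-fold in the wild-type lists and no K198Q peak. At Uimc1, a DNA repair factor, the wild-type values were 10.3-fold and 16.9-fold. The start of Ndufb8, a subunit of respiratory complex I, had 8.58-fold and 16.8-fold, and that of Eif4ebp1, a repressor of translation, 17.0-fold and 7.94-fold. The fifth lay in an intron of Coro2b, with 10.2-fold and 13.9-fold. Only 34 lost regions reached a mean of 10-fold, against 1138 kept regions.

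The 13 regions found with K198Q alone were weak. Their median was 5.0-fold and the strongest, at the start of Adamts7 (chr9:90162679-90162961), had 5.36-fold and 6.96-fold. Next came an intron with Gpr18 as the nearest start, with 5.35-fold and 5.66-fold, the start of Gfra1 with 5.63-fold and 5.02-fold, that of Rnf216 with 4.82-fold and 5.64-fold, and a site near Syf2 with 5.33-fold and 5.09-fold. A K198R peak was present in at least 1 list at 12 of the 13.

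Gene lists gave the view from B cell biology. A gene was counted as bound where a replicated summit lay in its body or within 10 kb of one of its starts, which held for 5988 of 21924 protein-coding genes (27.3%) with wild type and 2208 (10.1%) with K198Q. These counts are descriptions, and the lists were chosen with earlier results of these data known.

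Genes known to be activated by Pax5 kept more of their regions than genes at large. Wild-type Pax5 was at 26 of 30 of them and K198Q at 20, and 30 of their 57 wild-type regions were kept, against 29.9% of all regions. Their regions were also stronger, with a median of 7.67-fold against 6.44-fold over all. The promoter of Cd22, an inhibitory lectin, had 23.6-fold and 24.5-fold against 8.62-fold and 8.81-fold. Blnk, the linker downstream of the pre-B cell receptor, kept all 4 of its regions, the strongest at 18.2-fold and 26.5-fold against 16.6-fold and 14.2-fold. At Igll1, a surrogate light chain, the promoter had 33.4-fold and 20.5-fold against 14.7-fold and 25.1-fold, so that the forms overlapped. The region at the start of Cd79a, a signalling chain of the receptor, had 12.3-fold and 24.8-fold against 4.90-fold and 7.42-fold. At the start of its partner Cd79b wild type had 8.54-fold and 8.94-fold and K198Q had no peak. Another Cd79b region, 6124 bp from the start, was kept, with 4.31-fold and 4.7-fold against 7.535-fold and 3.96-fold.

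Genes named in the study for its binding data split between kept and lost. Of the 20, wild-type Pax5 was at 11 and K198Q at 5, among them Vpreb1, Cxcr4 and Rag1. Rag1, a recombinase of V(D)J joining, had 13.9-fold and 9.19-fold against 6.12-fold and 4.48-fold at 899 bp from its start. This was the 1 region kept of the 3 that wild type had at Rag1, and 2 were lost. At Cxcr4, a chemokine receptor, a region at −9263 bp had 7.48-fold and 10.1-fold against 6.87-fold and 6.35-fold. The other 6 had wild-type regions and no K198Q peak. They were the proto-oncogenes Myc (4.94-fold and 4.26-fold at the stronger of 2 regions) and Mycn (5.36-fold and 6.06-fold), the zinc finger factors Klf6 (5.24-fold and 8.33-fold) and Bcl6 (5.33-fold and 4.66-fold), the mitophagy receptor Fundc1 (9.25-fold and 8.52-fold) and Nus1 (3.59-fold and 3.21-fold), a subunit of a prenyltransferase. For Csf1, Actr6, Foxo1, Lif, Itga6, Ikzf1, Rb1, Cdk4 and Cox20 neither form had a replicated region by this rule.

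The remaining lists stand beside the 29.9% kept of all regions. The pro-B marker genes, which include Igll1, Vpreb1, Cd79a and Erg from other lists, kept 15 of 23 regions. The regions of this list were strong with wild type, with a median of 10.2-fold beside 6.44-fold over all regions. At a like strength, set 9 of all wild-type regions (median 10.5-fold) kept 69.2%. Genes known to be repressed by Pax5 had 21 wild-type regions of which 6 were kept (28.6%), close to the share of all regions, including Cd47 (15.03-fold and 15.7-fold against 5.58-fold and 6.16-fold), Grap2 (19.8-fold and 16.7-fold against 10.4-fold and 10.7-fold) and Notch1 (8.76-fold and 5.0-fold against 5.13-fold and 4.14-fold). Early B cell transcription factors, listed with the V(D)J joining genes Rag1, Rag2 and Dntt, had 42 regions and 13 kept (30.95%), again close to it. Of these 13, 5 were at Erg, 1 at Rag1 and 1 at Rag2. Within Pax5 itself none of 3 was kept, where 2 were lost and 1 met an unreplicated K198Q peak. That peak, in K198Q replicate 2, had 9.90-fold, and the wild-type values there were 5.34-fold and 2.86-fold. ETS factors had 25 regions and 10 kept, 5 of them at Erg and 3 at Spib. Of the 25 regions at genes of IL-7 signalling and proliferation 4 were kept, at Stat3, Ccnd3, Dusp6 and Mcl1, and of the 9 at cell cycle genes 1, at Mki67. The regions of the last 2 lists were weak with wild type, with medians of 5.42-fold and 5.75-fold. T cell, myeloid, NK and erythroid marker genes had 8 wild-type regions between them, none kept, with list medians of 5.36-fold to 6.41-fold, a strength at which few regions were kept in the whole set, and OP9 stromal marker genes had none.

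**Figure D5:**
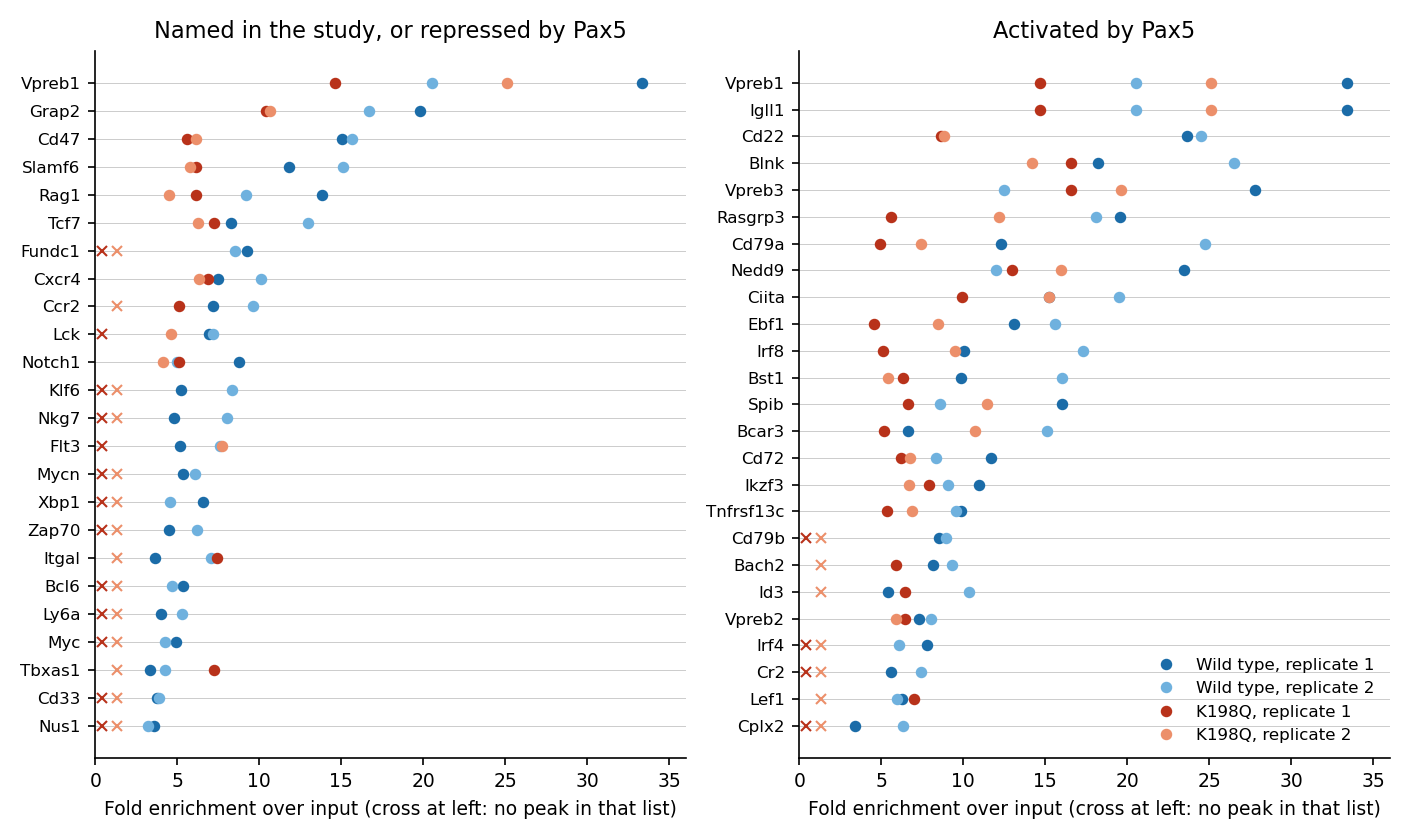
Fold enrichment over input (horizontal) of the strongest wild-type region of each gene in the 2 wild-type and 2 K198Q lists, for genes of the lists named in the study or known to be repressed by Pax5 (left) and known to be activated by it (right). Crosses mark a list with no peak there; the 6 genes with the strongest wild-type signal on the left and the 17 on the right have peaks in both K198Q lists.

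RNA from Pax5-/- cells with EV, wild-type Pax5 or K198Q was set beside the binding. The 8 libraries, 2 of each group with K198R included, held between 28865461 and 30520853 normalized counts each. Pax5 RNA itself was 2201 and 2103 normalized counts with EV, 6458 and 6152 with wild type and 8918 and 8963 with K198Q. Whole-gene counts do not tell reads of the disrupted gene from those of the virus. Both K198Q libraries lay above both wild-type libraries, a log2 difference of 0.50 ± 0.12 (SE) that missed the threshold (limma, Benjamini-Hochberg adjusted p = 0.558). RNA and ChIP came from separate samples. These counts do not give the level of Pax5 protein, which the study reports as lower for K198Q than for wild type in a human cell line.

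Cells of the culture could be checked by their markers. The 11 pro-B markers in the table summed to between 42716 and 95863 normalized counts, led by Igll1. The 8 stromal markers, led by Fn1, summed to 2485 to 6428, with 2485 and 6428 in the wild-type libraries and 2914 and 5024 in the K198Q libraries. Among T cell markers Cd3e, Cd3d, Cd4, Cd8a and Cd8b1 were under 10 in every library, while the other 5 of the list were expressed and the 10 genes, led by Lck, summed to 4491 and 5188 with EV, 3856 and 4156 with wild type and 4262 and 4191 with K198Q. Myeloid markers, led by Itgam, summed to 1166 and 870 with EV, 586 and 591 with wild type and 861 and 821 with K198Q. NK markers, led by Klrd1, summed to 1242 and 1109, 487 and 388, and 785 and 651. In these 3 lists both K198Q sums lay above both wild-type sums. Erythroid markers summed to between 37.7 and 123 in all libraries. The study describes the cells as sorted pro-B cells with B220 and without IgM or lineage markers (Lin−), a sort that selects against other blood lineages. The part of these cell types' RNA in the differences below was not tested. In such bulk samples fewer cells of a type and less RNA per cell cannot be told apart.

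Few genes were called different in RNA between K198Q and wild type, with 2 libraries per group. A gene that was not called is not shown to be unchanged. Of 13345 genes tested, none was called higher with K198Q (0%) and 3 were called lower (0.0225%), by limma at an adjusted p under 0.05 and a log2 change of at least 1.5. Without adjustment, 241 were higher and 221 lower at p under 0.05. Without any 1 of the 4 libraries of these groups no gene was called lower, and 1 was called higher without K198Q replicate 2 and 1 without wild-type replicate 2. With the replicate number as a block, which the libraries' paired deviations support, 4 were higher and 10 lower. The 3 were antigen receptor gene segments, Ighv5-4, Trgc2 and Trdv5, the last 2 of T cell receptor loci. Trgc2 had 1260 and 1717 normalized counts with wild type and 141 and 96.5 with K198Q. Of the 3722 tested genes with a wild-type region within 1 kb of a start, 0 were called either way, with or without the block. In the main fit this is near the share over all genes (0% higher and 0.0225% lower), so it does not set these genes apart. Without adjustment, 35 of the 3722 lay above and 44 below at p under 0.05. The median log2 change was −0.01 for genes whose region was kept, −0.01 for those with an unreplicated K198Q peak and −0.00 for those whose region was lost, beside −0.01 over all genes.

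Against EV, more genes were called higher than lower with both forms. Wild-type Pax5 had 168 genes higher (1.26%) and 35 lower (0.262%), and K198Q had 84 higher (0.629%) and 4 lower (0.03%), by the same limma fit. With the replicate block the counts were 219 higher and 106 lower for wild type and 133 and 7 for K198Q. The balance moved with the fit. For wild type, without adjustment 978 were higher and 943 lower at p under 0.05, and leaving out 1 library left 64 to 111 higher and 2 to 9 lower. For K198Q 636 were higher and 413 lower without adjustment, and leaving out 1 library left 29 to 53 higher and 0 to 1 lower. The 2 comparisons share the EV libraries. Among genes with a kept region at a start, 15 of 1226 were higher with wild type and 9 with K198Q, and among those with a lost region 15 of 1448 and 5. Wild-type shares of 1.22% and 1.04% were close to the 1.26% over all genes, and K198Q shares of 0.734% and 0.345% stood beside 0.629%. With the replicate block the K198Q counts were 10 in kept and 11 in lost genes and the wild-type counts 17 and 18, so that the gap between kept and lost genes with K198Q was not present in that fit.

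Part of the genes activated by Pax5 rose with both forms. Of the 27 tested, 11 were called higher with wild type and 8 with K198Q (9 with the replicate block), beside 1.26% and 0.629% of all genes, and none passed both limits between the forms, where their median log2 change was −0.24 and that of all genes −0.01. Blnk RNA was 2.56 and 4.90 normalized counts with EV, 915 and 954 with wild type and 547 and 397 with K198Q. The log2 difference of K198Q was −1.002 ± 0.27 from wild type (adjusted p = 0.746) and 6.67 ± 0.27 from EV (adjusted p = 0.00015), with SE and Benjamini-Hochberg adjustment from limma. Cd79a had 2282 and 2247, then 7561 and 9491, then 5321 and 5140. Its log2 difference of K198Q from wild type was −0.70 ± 0.11 (SE, limma), with an adjusted p of 0.217 and of 0.0471 with the replicate block, under the limit of 1.5 in size. Among these 3 groups the wild-type libraries were highest in both genes, K198Q in between and EV lowest, with no overlap. The K198R libraries were higher still, with 3586 and 3133 for Blnk and 13596 and 14080 for Cd79a. Rag1 had 1443 and 2289 with EV, 8938 and 8704 with wild type and 7230 and 5909 with K198Q. Myc, at which wild type had regions and K198Q had no peak, had 17025 and 12712, 18082 and 14667, and 19758 and 13889, so that all 3 groups overlapped.

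Genes repressed by Pax5 were tested in the same way. Of 22 tested, 1 was called lower with wild type (Il2rb), where 0.262% of all genes were, and 1 higher (Tcf7), where 1.26% were. None was called with K198Q against EV or between the forms, where the median log2 change was 0.24 and that of all genes −0.01. With the replicate block Csf1r, a receptor of the myeloid lineage, was also called lower with wild type, and Tcf7 was called higher with K198Q. Il2rb, a receptor chain for IL-2 and IL-15, had 955 and 914 normalized counts with EV, 230 and 240 with wild type and 567 and 524 with K198Q. Its K198Q values lay between those of EV and wild type without overlap, a log2 difference from wild type of 1.21 ± 0.25 (SE) with an adjusted p of 0.414 by limma. Neither form had a region at Il2rb by the rule above.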

How the data were processed

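ChIP-seq of Pax5 forms and RNA-seq of the same kind of cells were used. Per the methods, the authors aligned ChIP reads to mm10 with Bowtie2, removed low-quality, unmapped and duplicate alignments and called peaks per replicate with MACS2 over the input of the same sample at q under 0.05. The deposited lists give positions, a fold enrichment (a ratio over input) and a −log10 q, but no read numbers, so depth per region is unknown here; the study describes the ChIP libraries as of nearly equal read number. RNA values are normalized counts, a scaled signal that the authors made with Salmon, Tximeta and DESeq2 and deposited without the raw counts. The RNA tables of the Sirt7 experiments were not used.

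Overlaps, regions and summit windows were computed in Python 3.11.15 with GENCODE M21 and the GRCm38.p6 genome; promoters lie within 1 kb of a start. RNA was tested with limma 3.58.1 on log2(value + 1) over all 8 libraries, for genes of at least 10 in at least 2 libraries, with Benjamini-Hochberg adjustment. Overlap, motif and limma steps were tested on simulated data. Same-numbered RNA libraries deviated together in all 6 pairs of groups (r of 0.264 to 0.383), so counts with the replicate block are given beside the main ones. Named genes followed a rule: the genes named in the study for ChIP-seq (some not reported here), and the 5 strongest regions of each class, with the genes of highest fold enrichment as examples of the other lists; no gene with a promoter region was called between the forms. Cd79a, Cd79b, Notch1, Il2rb, Trgc2 and the other receptor segments were added after their values were seen. Members, lists and tests were chosen with earlier results of these data known. Alternatives were stricter q, equal list lengths, other overlap rules, each replicate left out and other RNA settings.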

Additional observations from a re-analysis of the deposited data

How the results depend on the processing

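The direction of all 7 comparisons between lists held under each alternative tried, except that the Pax5 core share was lower with K198Q in lists of equal length, by −0.924 percentage points; a shorter list holds stronger peaks by construction. The 2 shares of regions moved. Wild-type regions kept were 28.8% at −log10 q of at least 5, 67.1% in lists of equal length, 26.3% with an overlap of at least 50% of both peaks and 28.6% with summits within 100 bp, and 20.1% to 44.2% without 1 replicate, where the remaining list was used without replication. K198Q regions shared with wild type were 78.1% in lists of equal length, 83.5% with an overlap of at least 50% and 89.2% with summits within 100 bp, and 88.4% to 98.4% without 1 replicate.

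Pairing by replicate number gave 34.3% of the wild-type number of peaks and a median log2 ratio of −0.60 in shared regions, close to the unpaired values. For RNA, the replicate block called 14 genes between K198Q and wild type in place of 3, 325 between wild type and EV in place of 203 and 140 between K198Q and EV in place of 88. With only the 2 groups, 7 genes were called between K198Q and wild type. With no fold limit 434 were called between wild type and EV, and with no filter on low values 58 between K198Q and EV. Leaving out 1 library left 0 to 1 (none lower), 67 to 113 and 29 to 53 called genes in the 3 comparisons, with fewer samples in each fit. Since the single-library fits leave 1 sample in a group, that sample was assumed to vary like the others. With 1 list left out the exact permutation p was 0.667, the smallest that 1 list against 2 gave here, as it also was for the fold enrichment of all peaks at −log10 q of at least 5. Library depth was nearly equal per the study's notes, but reads per region were not in the lists, so a region without a K198Q peak is only known to lie under the threshold.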
